A study of Mus musculus with 22 samples.

Results

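Genes of serine synthesis and of the response driven by the transcription factor ATF4 were followed through esophageal epithelium of control mice, mice with eosinophilic esophagitis (EoE) and mice with esophageal squamous cell carcinoma (ESCC). They were chosen by name, 10 of the 17541 genes in the deposited count tables: Phgdh, Psat1, Psph, Shmt2, Mthfd2, Asns, Atf4, Ddit3, Slc7a11 and Slc3a2. Epithelium peeled from the esophagus of 13 C57BL6 mice was profiled by inDrop, a droplet method that gives the transcripts of a cell a shared barcode and each captured molecule a unique molecular identifier (UMI). The mouse numbers come from the sample titles. The 6 controls received no treatment and comprised 3 young mice of 3 to 4 months (mice 1, 2 and 6) and 3 old mice of 18 to 20 months (mice 3, 4 and 5). The 4 mice with EoE were sensitized for 12 days with MC903 and ovalbumin (OVA) on the ear skin, challenged with OVA by gavage and in drinking water, and collected at day 32 (mice 9 and 10 at 6 to 8 weeks of age, mice 11 and 12 at 19 to 20 months). The 3 mice with ESCC (8M, 17F and 17M), aged 8 to 10 months, drank water with 4-nitroquinoline 1-oxide (4NQO), a chemical carcinogen, for 16 weeks and were kept for 8 weeks without it. Both diseases are thus whole-animal models in 1 strain, and the ages of the ESCC mice lay between those of the young and old mice of the other groups.

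Cells make serine from a glycolytic intermediate in a short pathway: PHGDH oxidizes 3-phosphoglycerate, PSAT1 transfers an amino group to the product, and PSPH removes the phosphate. SHMT2 and MTHFD2 then pass a carbon unit of serine to folate inside mitochondria, which feeds purine and thymidylate synthesis. ATF4 is the transcription factor whose translation rises when eIF2α is phosphorylated, as in amino acid shortage or protein folding stress, and it is known to activate the serine enzymes, ASNS, the stress factor DDIT3 (CHOP) and the amino acid transporters SLC7A11 and SLC3A2. SLC7A11 imports cystine, the precursor of glutathione, in complex with SLC3A2, and is also a known target of the oxidant-responsive factor NRF2.

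The libraries of the 3 groups differed in depth. Of 1500 deposited cells per condition, 1493 control cells and 1472 ESCC cells but only 143 EoE cells lay within 250 to 3500 genes and 100 to 9500 UMIs and were not called non-epithelial; these are the cells used below unless all deposited cells are named. They held 111043 to 427752 UMIs per control mouse, 1240388 to 2103543 per ESCC mouse and 6245 to 41909 per EoE mouse, and EoE mouse 11 gave 11 cells. The 2 libraries of each control and ESCC mouse shared barcodes, 239 in 9 mice, and the UMI totals of a shared barcode differed by a median of 1.89% to 20.96% depending on the mouse, so some cells may have been counted in both libraries. Between libraries of different mice at most 4 barcodes were shared. Both libraries of a mouse were summed into 1 replicate, and a setting that counted shared cells once is named where it changed a call. Cells were classed as basal, suprabasal or above the suprabasal strip by the balance of Krt5, a basal keratin, and Krtdap, a differentiation gene, in the control clusters nearest to them. Basal cells made up 41.1% to 68.6% of control cells, 65.9% to 72.7% of ESCC cells and 9.09% to 24.6% of EoE cells. Basal markers took 1.29% to 1.97% of control UMIs, 1.88% to 2.90% of ESCC UMIs and 0.182% to 0.336% of EoE UMIs, so basal signal was weak in EoE. Of 14 immune markers, 0 to 4 had a UMI in a control mouse (0 to 7 UMIs), none in EoE and 10 to 14 in an ESCC mouse (122 to 237 UMIs, from libraries with more UMIs in all). The 8 eosinophil and mast cell markers were at 0 in every control and EoE mouse and at 1 to 4 UMIs per ESCC mouse. Fibroblast markers took at most 0.0369% of UMIs in any mouse, and 1 endothelial marker gave 1 to 5 UMIs per EoE mouse. No batch is named in the labels; one that follows the condition cannot be told apart from it.

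Levels are UMIs of a gene relative to all UMIs of a mouse, in CPM, after scaling by trimmed means (TMM). In ESCC against control, 6 of the 10 genes were higher and 0 lower by edgeR's quasi-likelihood test at an adjusted p under 0.05, where 17.8% of the 5866 genes tested were called higher and 16.8% lower. The 6 were Slc7a11, Mthfd2, Phgdh, Slc3a2, Shmt2 and Atf4, while Psat1, Psph and Asns did not pass and Ddit3 had too few UMIs to be tested. No member was lower at an unadjusted p under 0.05, and DESeq2 also called 0 lower. Slc7a11 passed the filter on low counts through the ESCC group and 1 EoE mouse, Psph through the ESCC mice and 1 control mouse, and Mthfd2 through 3 EoE mice with 1 or 2 UMIs each, so a high level in ESCC (Slc7a11, Psph) or in EoE (Mthfd2) was a condition of being tested. Scaling by total UMIs moved the median of all genes from 0.01 to −0.18 on the log2 scale and RLE scaling moved it to 0.12, with 1046 genes higher and 985 lower under TMM, 737 and 1485 under total UMIs, 1313 and 761 under RLE and 1189 and 735 by DESeq2. The 6 members were called higher under each of these, and Psph in addition under RLE and DESeq2.

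**Figure D1:**
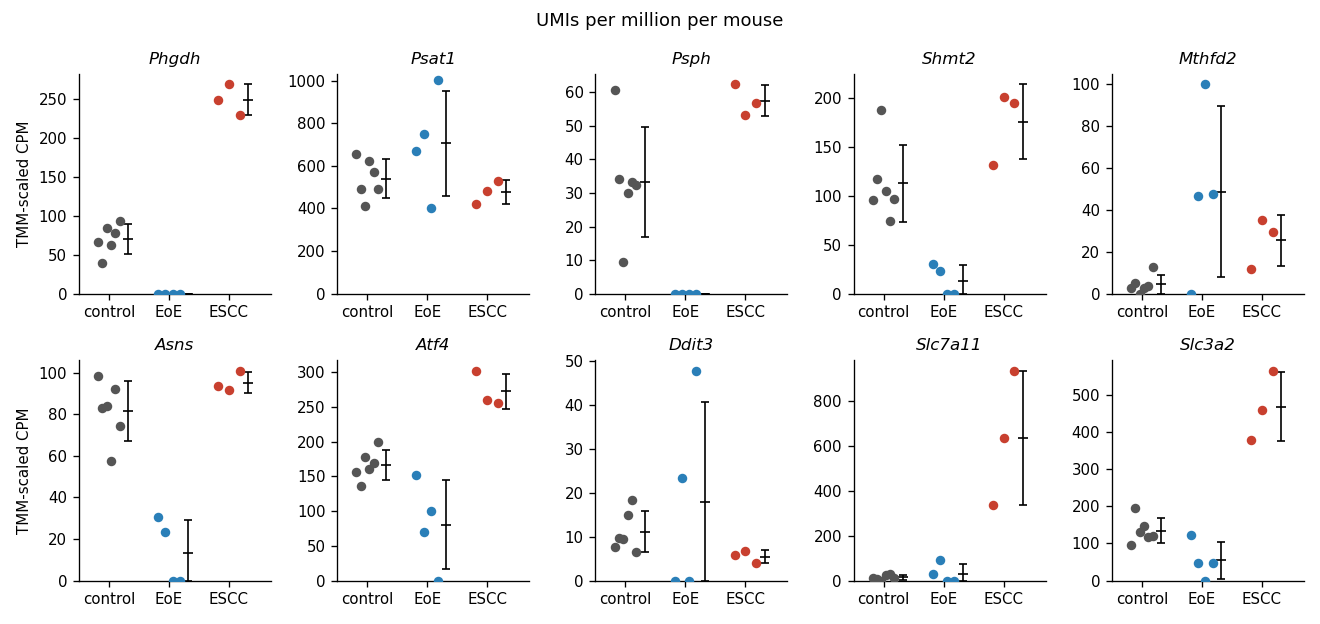
TMM-scaled CPM of the 10 genes in each mouse (points) of the control (n = 6), EoE (n = 4) and ESCC (n = 3) groups, with the mean and SD beside them. The ESCC mice lie above every control mouse for Phgdh, Atf4, Slc7a11 and Slc3a2, and the EoE mice are at 0 for Phgdh and Psph.

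Among the enzymes of serine synthesis, Phgdh, the first and committed step, rose in ESCC. Its level was 39.1 CPM in the lowest control mouse, 71.5 at the median and 93.7 in the highest, against 248 in ESCC mouse 8M, 268 in 17F and 229 in 17M. The groups did not overlap, and the fold was 3.54 (log2 1.82 ± 0.20 SE, adjusted p = 2.72e-08). Phgdh lies at chr3:98313171-98339969 (GRCm38.p6, minus strand), and the ends of its transcripts share sequence words of 31 bases with 20 other annotated genes, of which 1 is in the count tables, so its UMIs carry that uncertainty.

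Psat1, the second enzyme, did not follow Phgdh. It measured 412 CPM in the lowest control, 532 at the median and 654 in the highest, against 421, 483 and 531 in ESCC mice 8M, 17F and 17M, a log2 difference of −0.19 ± 0.19 that did not pass (adjusted p = 0.476). Every ESCC mouse lay inside the range of the controls. Psph, which completes the pathway, had 9.36 CPM in the lowest control, 32.7 at the median and 60.6 in the highest, and 62.4, 56.9 and 53.0 in 8M, 17M and 17F (log2 0.64 ± 0.27, adjusted p = 0.0642). Control mouse 1 alone reached the ESCC range, and without it the log2 difference of Psph was 0.93 with an adjusted p of 0.0163. RLE scaling and DESeq2 also called it, and these were the only 3 of 23 alternatives that did. Over the 23 alternatives the log2 difference was 0.34 to 0.93, with an adjusted p up to 0.467. Psph overlaps Cct6a at its locus (chr5:129765558-129787443), so their reads may be hard to separate.

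The makeup of the pathway's UMIs moved with these genes. Psat1 gave 59.5% to 75.6% of the UMIs of Phgdh, Psat1, Psph, Shmt2 and Mthfd2 in the control mice, 46.4% to 51.05% in the ESCC mice and 80.0% to 95.7% in the EoE mice. These are shares of UMIs not divided by transcript length, and the 3 ranges did not overlap. The share in EoE mouse 11 rests on 5 UMIs, against 22 to 35 in the other EoE mice.

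**Figure D2:**
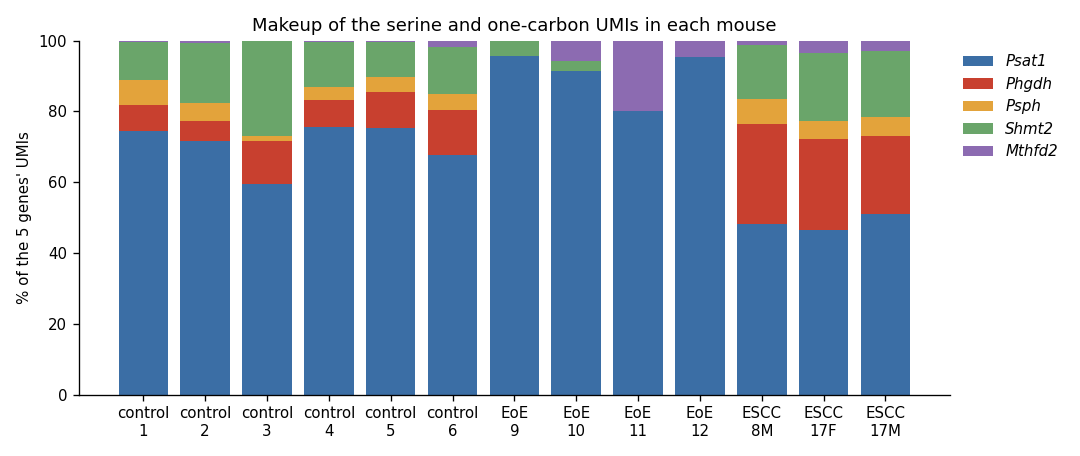
Share of each of 5 serine and mitochondrial folate genes in their summed UMIs, 1 bar per mouse. Psat1 takes 46.4% to 51.05% in ESCC and at least 80.0% in EoE; the EoE bars rest on 5 to 35 UMIs.

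The mitochondrial enzymes downstream of serine were both called higher in ESCC. Shmt2, which splits serine into glycine and a folate-bound carbon, had 73.7 CPM in the lowest control, 101 at the median and 187 in the highest, against 132 in 8M, 201 in 17F and 194 in 17M (log2 0.74 ± 0.21, adjusted p = 0.00552). Control mouse 3, the control with the fewest UMIs, lay among the ESCC mice. Without ESCC mouse 17F the adjusted p was 0.0753, and against old controls alone it was 0.0585. Shmt2 overlaps the neighboring gene Ndufa4l2 at chr10:127517123-127522444. Mthfd2, which oxidizes the folate-bound carbon, was sparse in controls, with 8 UMIs over 6 mice and a highest level of 12.9 CPM, and had 118 UMIs in ESCC, at 11.7 CPM in 8M, 35.1 in 17F and 29.6 in 17M (log2 2.40 ± 0.53, adjusted p = 0.000745). ESCC mouse 8M lay within the control range and the others above it.

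Asns, which makes asparagine and is a widely used readout of ATF4 activity, did not pass in ESCC over all cells. Controls had 57.6 CPM at the lowest, 83.6 at the median and 98.5 at the highest, and the ESCC mice 93.6 (8M), 91.5 (17F) and 101 (17M), a log2 difference of 0.24 ± 0.20 (adjusted p = 0.373). The start of Asns is shown because it holds the core of the response element that ATF4 and C/EBP proteins are known to bind, TGATGNAA, searched on both strands of the 300 bases from 250 before to 50 after each RefSeq start. The stretch covers 34 to 5 bases before the listed start (GRCm38.p6 chr6:7693214-7693243, minus strand), and capitals mark the match.
Asns: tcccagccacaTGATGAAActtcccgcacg
Of 32851 RefSeq promoters, 3.97% held this core. Among the 10 members, Asns and Slc7a11 held it in this window, and among 26 genes of a list of other ATF4 targets with a listed promoter, 9 did.

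Of the transcription factors, Atf4 was called higher in ESCC and Ddit3 was not tested. Atf4 mRNA was 137 CPM in the lowest control, 165 at the median and 200 in the highest, against 302, 261 and 256 in ESCC mice 8M, 17F and 17M, with no overlap (log2 0.71 ± 0.18, adjusted p = 0.00283). Of 27 alternative settings, the difference missed the threshold in 1, with UMIs thinned to the shallowest mouse (adjusted p = 0.213). ATF4 protein is set mainly at translation, which UMIs do not measure. Ddit3, the stress factor downstream of ATF4, was at 19 UMIs in the controls, 2 in EoE and 23 in ESCC, or 6.46 to 18.4 CPM per control mouse and 3.90 to 6.63 per ESCC mouse. It did not pass the filter on low counts. Another annotated gene of the same name and the gene of methionyl-tRNA synthetase share sequence with the end of Ddit3, so its UMIs are uncertain.

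Slc7a11 had the largest fold of the members. In controls it was at 0 in the lowest mouse, 12.8 CPM at the median and 29.5 in the highest, from 28 UMIs in all, and in ESCC it reached 336 CPM in 8M, 637 in 17F and 934 in 17M, from 2981 UMIs. The log2 difference was 5.26 ± 0.33, a 38.3-fold higher level (adjusted p = 1.92e-14), and it stayed between 4.81 and 5.81 in 27 alternative settings. The 2 libraries of a mouse, which share barcodes, gave 258 and 293 CPM of total UMIs in 8M, 577 and 529 in 17F and 774 and 813 in 17M. Immune markers moved with the condition, at 0.0076% to 0.0113% of UMIs per ESCC mouse and 0% to 0.00344% per control mouse, and their part in this result was not tested. Slc3a2, its partner chain, measured 96.0 CPM in the lowest control, 125 at the median and 195 in the highest, against 379, 459 and 564 in 8M, 17F and 17M (log2 1.82 ± 0.20, adjusted p = 7.79e-09). The ESCC mice took the same order for both chains, 8M lowest and 17M highest. They took this order for Psat1 and for total UMIs too, and not for the other members.

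The start region of Slc7a11 is shown for its 2 copies of the same core. The stretch runs from 90 to 31 bases before the start listed in the promoter table (GRCm38.p6 chr3:50443644-50443703, minus strand), which lies inside the full annotated span of the gene at chr3:50364936-50499087.
Slc7a11: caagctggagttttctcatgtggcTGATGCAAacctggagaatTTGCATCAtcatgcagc
Capitals mark the matches, 66 to 59 bases before the start on the strand of the gene and 47 to 40 bases before it on the opposite strand. Windows with 2 or more matches made up 0.07% of the 32851. A core of the antioxidant response element, TGACNNNGC on either strand, was in 12.4% of promoters and in the windows of Phgdh, Psph and Asns, and not in that of Slc7a11.

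Both transporters and Phgdh were higher in ESCC within basal cells, within suprabasal cells and within cells above the strip. In basal cells 6 members were called higher, where 16.6% of genes tested were called higher and 14.6% lower. In suprabasal cells 3 were called higher, where 19.1% were higher, 16.8% lower and 35.9% either, and above the strip 4, where 14.8% were higher and 11.8% lower. Mthfd2 and Ddit3 were not tested in any stage, Psph not in basal or suprabasal cells and Asns not in suprabasal cells. Slc7a11 had 1 control UMI in basal and 1 in suprabasal cells, so a high level in ESCC was a condition of its test there. Phgdh differed by 1.79 ± 0.21, 2.06 ± 0.34 and 1.77 ± 0.26 (log2 ± SE) in basal, suprabasal and above-strip cells (adjusted p = 9.92e-07 in basal cells), with no overlap between the mice in any of them. Slc3a2 differed by 1.60 ± 0.22, 1.53 ± 0.30 and 2.32 ± 0.24. Atf4 was called higher in basal cells (0.81 ± 0.18, adjusted p = 0.00152) and above the strip (0.90 ± 0.22, adjusted p = 0.00332) and differed by 0.58 ± 0.25 in suprabasal cells (adjusted p = 0.0738). Suprabasal tests used 5 control mice, since control mouse 3 had 8 such cells.

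**Figure D3:**
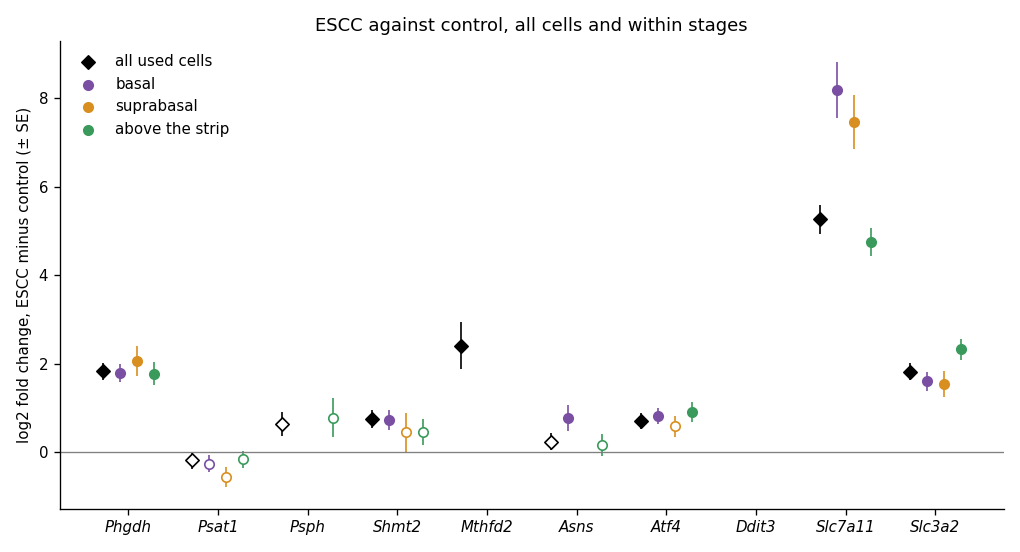
Log2 fold change of ESCC minus control (± SE) for each member over all used cells (diamonds) and within 3 stages (circles); filled points passed an adjusted p under 0.05 and missing points were not tested. Phgdh, Slc7a11 and Slc3a2 are filled in all 3 stages, and the Psat1 points lie below 0 and are open.

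Psat1 and Asns gave stage values that the whole sample did not show. Psat1 in suprabasal cells was 340 to 451 CPM in the ESCC mice and 461 to 905 in the control mice, with no overlap, at a log2 difference of −0.57 ± 0.23 (adjusted p = 0.0588). That comparison passed in only 3 of 12 alternatives. It did so when cells in both libraries were counted once (−0.61, adjusted p = 0.0390), when each cell was classed by its own Krt5 and Krtdap (−0.76, adjusted p = 0.0149) and without control mouse 6 (−0.65, adjusted p = 0.0423). Over the 12 alternatives the log2 difference was −0.76 to −0.36, with an adjusted p up to 0.234. Asns in basal cells was 81.2 to 82.3 CPM in the ESCC mice and 14.5 to 71.3 in the controls (log2 0.78 ± 0.29, adjusted p = 0.0479), and the call was lost in 8 of 13 alternatives: with DESeq2, by own Krt5 and Krtdap, and without ESCC 17F or 17M or control 2, 3, 4 or 6 (adjusted p up to 0.147). Shmt2 was called higher in basal cells (0.72 ± 0.22, adjusted p = 0.0157), and did not pass without ESCC 17F or 17M or control 5 or 6 (adjusted p up to 0.0732).

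Slc7a11 differed most between stages. In control mice 26 of its 28 UMIs came from cells above the strip (35.4 CPM of total UMIs pooled, 95% counting interval 23.1 to 51.8), and basal and suprabasal cells gave 1 UMI each (1.32 CPM, 0.0334 to 7.36, in basal cells). In ESCC, basal cells of 8M, 17F and 17M held 197, 433 and 710 CPM, suprabasal cells 471, 867 and 1155, and cells above the strip 521, 1115 and 1170. By these values, which were scaled within each stage, each ESCC mouse had its lowest level in basal cells and its highest above the strip. Pooled as CPM of total UMIs, ESCC cells held 443 (421 to 467) in basal and 843 (786 to 903) in suprabasal cells. Above the strip they held 841 (781 to 905), so the order of the upper stages depends on the scaling. The cells above the strip came from clusters that the groups filled differently. In the cluster with 4 superficial markers among its leading genes, pooled Slc7a11 was 62.5 CPM in controls (17 UMIs) and 602 in ESCC (72 UMIs). In the other cluster above the strip it was 19.4 (9 UMIs) and 886 (653 UMIs). The pooled ratio of ESCC to control was 336 in basal cells (60.1 to 13267) and 23.8 over all cells above the strip (16.1 to 36.7). In a fit with both stages of each mouse and the mouse as a block, the ESCC effect above the strip minus that in basal cells was −3.14 ± 0.91 on the log2 scale (adjusted p = 0.0442), where 1.84% of genes were called in that direction, 1.07% in the other and 2.91% in all. It rests on 1 control UMI in basal cells and missed the threshold at an adjusted p of 0.0501 with shared cells counted once. No other member passed this test; Slc3a2 differed in the other direction by 0.68 ± 0.29 (adjusted p = 0.217).

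**Figure D4:**
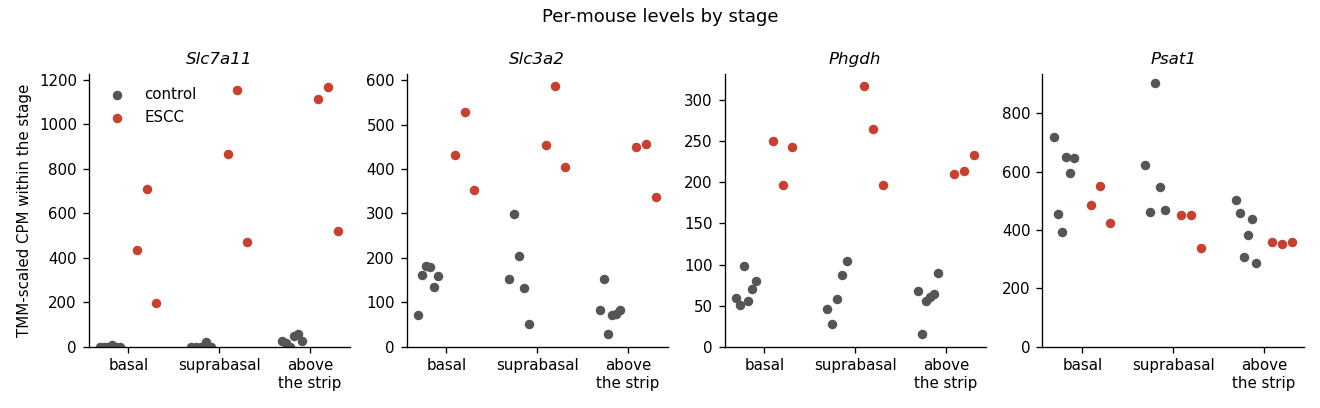
TMM-scaled CPM of Slc7a11, Slc3a2, Phgdh and Psat1 in each control mouse (grey) and ESCC mouse (red) within basal cells, suprabasal cells and cells above the strip. Slc7a11 in ESCC ranges from 197 in basal cells to 1170 above the strip, and control mice stay at or below 56.5.

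Within the controls the members had different stage patterns, given as a description since the stages come from the same cells. Pooled over mice as CPM of total UMIs, Psat1 was at 639 in basal cells (95% counting interval 583 to 699), 666 in suprabasal cells (569 to 775) and 418 above the strip (372 to 467), and by cluster it was highest in the cycling basal cluster led by Top2a and Cenpf (843 CPM pooled) and lowest in the cluster with 4 superficial markers among its leading genes (210). Shmt2 was at 127 (103 to 155), 115 (77.0 to 165) and 66.7 (49.3 to 88.1) in the same order, and Slc3a2 at 152, 171 and 84.4, both lowest above the strip. Asns ran the other way by stage, at 50.2 (35.5 to 68.9), 91.2 (57.8 to 137) and 102 (80.3 to 128). By cluster it did not keep rising, at 66.2 in the cluster with superficial markers and 123 in the other cluster above the strip. The intervals of Phgdh (70.0, 63.4 and 66.7) and of Psph (37.0, 35.7 and 35.4) overlapped across all stages. In ESCC, Psat1 (449, 388 and 320) and Shmt2 (183, 123 and 81.2) were likewise lowest above the strip and Asns (73.5, 92.2 and 101) highest there.

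In EoE against control the members split, on few UMIs. Of the 10 genes, 4 were called lower and 1, Mthfd2, higher. Over all genes tested 9.46% were called higher and 25.1% lower, and the median log2 difference was −0.75. Mthfd2 was tested only because 3 EoE mice passed the filter. No EoE mouse passed it for the 4 lower genes (Phgdh, Psph, Shmt2 and Asns), so a high level in the other groups was a condition of their tests. Phgdh had 0 UMIs in the 143 EoE cells, against 118 in controls, which places it at least 2.48-fold lower from a floor of 3 UMIs over the group (adjusted p = 0.00327). The floor leaves out the counting error of the controls, and the exact counting interval of the ratio reached up to 0.503. Psph also had 0, against 63 in controls, or at least 1.33-fold lower from the floor (adjusted p = 0.0370), with an interval of the ratio that reached 0.956. Shmt2 had 2 UMIs, a ratio of 0.182 to control with a counting interval of 0.0219 to 0.668 (adjusted p = 0.0131), and Asns had 2, a ratio of 0.233 with an interval of 0.0279 to 0.858 (adjusted p = 0.0284). Without EoE mouse 10 only the Phgdh call held among these 4, without mouse 11 or mouse 12 those of Phgdh and Shmt2, and without mouse 9 all but that of Psph. Fewer basal cells and lower depth moved with EoE, and their part in these differences was not tested.

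Over all 1500 deposited EoE cells, of which 144 lay within the limits, Phgdh had 1 UMI in EoE against 119 in controls (ratio 0.0536, interval 0.00135 to 0.304), Psph 1 against 63 and Asns 3 against 136. In that fit Phgdh, Psph, Asns and Atf4 were called lower, where 29.3% of genes were called lower and 50.8% in either direction. Shmt2 then had 14 UMIs, a log2 difference of −0.999 ± 0.43 (adjusted p = 0.0546). Atf4 in the cells within the limits was 153, 70.1, 100 and 0 CPM in EoE mice 9, 10, 11 and 12 (log2 −0.98 ± 0.44, adjusted p = 0.0794), and over all cells it was −1.07 ± 0.28 (adjusted p = 0.00256).

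Psat1 went the other way from Phgdh and Psph. In the cells within the limits it was at 671, 748, 400 and 1003 CPM in EoE mice 9, 10, 11 and 12, against 412 to 654 in controls, and did not pass (log2 0.43 ± 0.23, adjusted p = 0.156). The difference was 0.20 by DESeq2 (adjusted p = 0.455), 0.21 with RLE scaling, 0.07 with no filter and 0.63 with total UMIs, where it passed (adjusted p = 0.0366). Mice 9, 10 and 12 lay above every control and mouse 11, with 11 cells, below. Over all deposited cells the EoE mice held 980, 848, 974 and 1062 CPM and the controls 366 to 603, with no overlap. Those cells were shallow in EoE, with a median of 101 to 213.5 UMIs per cell by mouse, against 852 to 1377 in controls. Psat1 was called higher there (0.95 ± 0.17, adjusted p = 7.1e-05, where 21.4% of genes were called higher). It was also higher with DESeq2 (0.84) and without mouse 11 (0.96). Pooled Psat1 was 1170 CPM in EoE basal cells (584 to 2093), 1201 in suprabasal cells (712 to 1898) and 679 above the strip (504 to 896), beside the pooled control values given above. The intervals of EoE and control overlapped in basal and suprabasal cells and did not overlap above the strip. These 3 EoE values come from 11, 18 and 50 UMIs and carry no test across mice.

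Mthfd2 was called higher in EoE on 4 UMIs against 8 in controls (ratio 7.92, interval 1.75 to 29.6, adjusted p = 0.0484). Since 3 EoE mice and no mouse of another group passed the filter for it, a high level in EoE was a condition of this call. With no filter it was lost (adjusted p = 0.0692), and it held in 8 of the 18 alternatives in which Mthfd2 was tested. Over all deposited cells it had 14 UMIs, with 32.5 to 66.2 CPM per EoE mouse against 0 to 12.0 per control mouse and a ratio of 11.2 (4.37 to 30.7), but did not pass the filter there. Slc3a2 and Slc7a11 were not called in EoE. Slc3a2 was at 122, 46.7, 0 and 47.8 CPM in mice 9, 10, 11 and 12 (log2 −1.01 ± 0.52, adjusted p = 0.128), and its sign turned over all cells (0.34). Slc7a11 had 5 UMIs, 30.5 and 93.5 CPM in mice 9 and 10 and 0 in the old mice (log2 1.48 ± 1.01, adjusted p = 0.257), all in cells above the strip.

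Set against each other directly, ESCC exceeded EoE for 7 members and fell below it for 0, where 30% of genes were called higher, 11.7% lower and 41.6% in all (1758 and 685 genes, or 1253 and 914 when scaled by total UMIs). The 7 were Phgdh, at least 8.78-fold higher from the floor, Psph, at least 2.02-fold higher from the floor, Shmt2, Asns, Atf4 (1.69 ± 0.42), Slc7a11 (3.77 ± 0.59) and Slc3a2 (2.83 ± 0.45). The floor leaves out counting error: pooled counting intervals of Phgdh and Psph reached 34.6 CPM in EoE. In ESCC they were 233 to 262 CPM for Phgdh and 50.0 to 64.4 for Psph. No EoE mouse passed the filter for Phgdh, Psph, Shmt2 or Asns, and 1 did for Slc7a11. A high level outside EoE was thus a condition of testing these genes. Psat1 was lower in ESCC by 0.62 ± 0.26 with an adjusted p of 0.0520, the 1 member lower at an unadjusted p under 0.05, and DESeq2 called 0 lower. Psat1 was called in 7 of 22 alternatives. Among these were all deposited cells (−1.17 ± 0.20, adjusted p = 2.78e-05, where 23.6% of genes were lower and 32.9% higher), EoE mouse 11 left out (−0.77, adjusted p = 0.0190) and shared cells counted once (adjusted p = 0.0491). Over the 22 alternatives its log2 difference was −1.17 to −0.25, with an adjusted p up to 0.684. Mthfd2 did not differ past the threshold (−0.52 ± 0.90).

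Age was not associated with a call in any member. Old minus young controls, 3 against 3, differed by −0.21 to 0.10 on the log2 scale in the 6 members tested, with 0 members at an unadjusted p under 0.05 and 0 called by edgeR or DESeq2, where 0.0777% of 5149 genes were called higher and 0.0194% lower (0.0971% in all). The standard errors of these differences were 0.22 to 0.33, so changes of that size could not be told from the spread of the mice. For the EoE effect in old minus young mice, 2 of 4198 genes (0.0476%) were called and 0 members (0 at an unadjusted p under 0.05). Psat1 differed by −0.092 ± 0.52, Atf4 by −1.93 ± 1.34 and Slc3a2 by −1.54 ± 1.47 on the log2 scale, so these values do not show that the ages act alike. Shmt2 (−5.47 ± 4.44) and Asns (−5.16 ± 4.49) rest on 2 EoE UMIs each and Phgdh on 0, and for these 3 the fit says nothing about age.

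Other genes of the same pathways were taken from lists that hold none of the 10 members and share some genes with each other. Of 12 tested one-carbon and glycine genes, 6 were higher and 1 lower, with a median log2 difference of 0.50 against 0.01 over all genes. Slc1a4, a transporter of serine and other neutral amino acids, was at 122 against 33.8 CPM in controls (1.86 ± 0.28), and Gcat, a mitochondrial enzyme that yields glycine, at 61.2 against 24.6 (1.45 ± 0.30). Mat2a, which makes the methyl donor S-adenosylmethionine, was lower (−1.44 ± 0.26). Of 13 glutathione and cystine genes, 10 were higher and 0 lower (1 lower at an unadjusted p under 0.05, 0 by DESeq2), with a median of 1.39. They included Gclc, the catalytic subunit of the rate-limiting enzyme of glutathione synthesis, at 1133 against 206 CPM (2.45 ± 0.19), and Hmox1, which degrades heme, at 81.9 against 14.0 (2.37 ± 0.32).

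In the remaining stress lists genes were called in both directions or hardly at all, beside 17.8% higher and 16.8% lower over all genes. Of 19 other ATF4 targets, 5 were higher and 3 lower, near those shares, with a median of −0.01. Slc7a1, a carrier of cationic amino acids, rose (1.40 ± 0.22), and Vldlr, a lipoprotein receptor (−1.61 ± 0.37), and Ppp1r15a, a phosphatase subunit that reverses eIF2α phosphorylation (−0.83 ± 0.23), fell. Of 18 aminoacyl-tRNA synthetases, 4 were higher, led by Aars (1.33 ± 0.33) and Tars (0.96 ± 0.23), and 2 lower, Dars (−0.72 ± 0.18) and Sars (−0.60 ± 0.20). Of 18 endoplasmic reticulum chaperone and folding genes, 0 were higher and 1, Pdia3, was lower (−0.70 ± 0.18); 2 were higher at an unadjusted p under 0.05 and 0 by DESeq2. Of 10 eIF2 kinases and regulators, Eif2ak2, the kinase PKR, was higher (0.96 ± 0.27) and Ppp1r15a lower. Of 29 cell cycle genes, 14 were higher and 1 lower; cells of the cycling cluster were 14.7% to 21.6% of ESCC cells and 10.5% to 15.8% of control cells. With that cluster left out, Phgdh, Shmt2, Atf4, Slc7a11 and Slc3a2 were still called higher in ESCC and Mthfd2 was not tested.

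**Figure D5:**
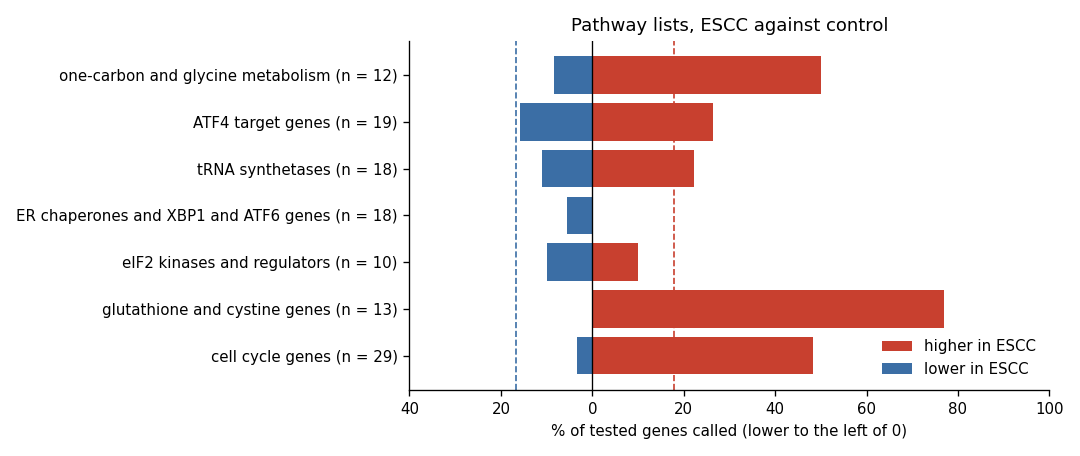
Share of the tested genes of each list called higher (red) or lower (blue) in ESCC against control at an adjusted p under 0.05, with dashed lines at the 17.8% and 16.8% of all 5866 genes. The glutathione and cystine list has 10 of 13 genes higher, and the endoplasmic reticulum list 0 of 18.

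In EoE more genes of each list were called lower than higher, and the same held over all genes tested, 25.1% lower and 9.46% higher, the shares against which the counts of the lists are to be read. Among 12 one-carbon genes 1 was higher and 5 lower, among 19 ATF4 targets 0 and 8 (1 higher at an unadjusted p under 0.05, 0 by DESeq2), among 18 synthetases 1 and 6, among 18 chaperone genes 2 and 6, among 10 eIF2 genes 0 and 4 (1 higher unadjusted, 0 by DESeq2), among 13 glutathione genes 0 and 4 (0 higher unadjusted, 0 by DESeq2) and among 29 cell cycle genes 0 and 10 (0 higher unadjusted, 0 by DESeq2). Over all deposited cells the medians of the one-carbon, ATF4 and glutathione lists moved to 0.07, −0.11 and 0.12, with 2, 3 and 3 genes higher and 4, 6 and 4 lower of 12, 17 and 12 tested, where 21.4% of all genes were higher and 29.3% lower. Sfxn1, a mitochondrial serine carrier, was higher (434 against 187 CPM, 1.20 ± 0.28), as it was over all cells (1.83). Hars, a synthetase (1.65 ± 0.46), and Sel1l (1.32 ± 0.28) and Canx (0.97 ± 0.22), both of protein quality control in the endoplasmic reticulum, were higher too. Mthfd1, a cytosolic folate enzyme, had 0 UMIs against 134 in controls (at least 2.82-fold lower from the floor, the counting interval of the ratio reaching 0.442). Ppp1r15a had 0 against 191 (at least 4.02-fold, interval up to 0.309) and Eif2s1, the eIF2α subunit itself, 0 against 180 (at least 3.79-fold, interval up to 0.328). Sfxn3, Slc7a5, Syvn1 and Cth were also called lower with 0 UMIs, against 59 to 75 in controls, and the interval of Cth passed 1 (up to 1.02). Farsb and Dars, both synthetase genes, had 1 and 2 UMIs against 227 and 254, the chaperone gene Dnajb11 1 against 156 and Nqo1, a quinone reductase, 5 against 325, and all were called lower. Over all cells Sfxn3 (−0.76) and Nqo1 (−0.12) were no longer called.

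The genes whose 6 levels (control and ESCC in 3 stages) were most like the summed serine and folate members were Morf4l1, Snrpb, Serpinb6a, Itga6 and Nop2, at a Pearson r of 0.985 to 0.993 over 6 levels of log2(CPM + 10). Of 3573 genes compared, 69 had an r over 0.95. For the sum of Asns, Atf4, Ddit3, Slc7a11 and Slc3a2 they were Prdx1, a peroxide-reducing enzyme, S100a11, Esd, S100a8 and D8Ertd738e at 0.991 to 0.994, with 106 of 3572 genes over 0.95. The levels share mice, libraries and depth.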

How the data were processed

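UMI counts per gene and cell were deposited for 22 libraries of 13 mice. Per the labels and methods, the authors extracted barcodes with UMI-tools 1.0.0, aligned reads with STAR 2.7.3 to GRCm38, assigned them with featureCounts, filtered cells in Seurat and reduced each condition to 1500 cells. These deposited counts were not normalized. The table symbols match GENCODE M21 in 98.9% and RefSeq in 98.7%. Of the count columns, 0 were left out.

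Cells within the authors' stated limits, without cells of at least 3 UMIs on other cell types' markers that outnumber keratin UMIs, were summed per mouse. No doublet caller was run. Control cells were clustered with scanpy 1.11.5 (2000 variable genes, 50 components, 15 neighbors, Leiden resolution 1) without the members and the pathway list genes (markers and cell cycle genes stayed in), clusters were classed by a Krt5 to Krtdap strip of 0.3 on a log10 scale, and every cell was assigned by vote among 15 control neighbors that were not of its own mouse. Stage tests needed 10 cells per mouse.

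The test was edgeR's quasi-likelihood F-test (version 4.0.16, R 4.3.3) on these sums for all 13 mice, after filterByExpr and TMM, with p-values adjusted by Benjamini-Hochberg over all genes tested and a threshold of 0.05. DESeq2 1.42.0 was an alternative. On simulated data with 200 genes changed by 2 on the log2 scale, 177 of the 178 tested were recovered for ESCC and 90 of 168 for EoE, with 5 and 15 unchanged genes called. Counting intervals are exact, at 95%, and with the floor of 3 UMIs cover counting error only. Replicates are mice as the labels number them. The members and lists were chosen with earlier results of these data known. Named beside the members are, for each pathway list other than the cell cycle genes and for each disease against control, the 2 called genes with the largest change in each direction, and the 5 genes most alike. Positions and promoters came from RefSeq GRCm38.p6, where each of the 10 members had a promoter, and sequence copies from GENCODE M21. Alternatives covered cells, scaling, filter, tool, groups in the fit, depth, libraries, ages, stage rule and each mouse left out.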

Additional observations from a re-analysis of the deposited data

Results flagged for a closer look

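The ESCC effect on Slc7a11 was called different between stages, by edgeR's test of the difference itself (adjusted p = 0.0442). It was smaller above the strip than in basal cells by −3.14 on the log2 scale (above minus basal). The difference rests on 1 control UMI in basal cells. The value was −5.55 with each cell classed by its own Krt5 and Krtdap (adjusted p = 0.00109). With shared cells counted once it was −3.09 and did not pass (adjusted p = 0.0501). No sample stood apart from its group for any member in 18 groups of control or EoE mice, where chance would flag about 1 in 20.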

How the results depend on the processing

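In ESCC against control, 4 to 7 members were called higher and 0 lower over 27 alternatives, 4 with thinned totals or only old controls and 5 to 7 as each mouse was left out; of the members' values 226 kept their call, 3 gained it, 3 lost it and 0 reversed. In EoE against control the count called higher, 1 as reported, was 2 with at least 100 UMIs per cell, with total UMIs and, of the settings chosen after seeing the data, over all cells without mouse 11; it was 0 with non-epithelial cells kept, the cycling cluster left out, RLE factors, ribosomal and mitochondrial genes left out, no filter, a minimum of 10 UMIs, only the 2 groups or thinned totals, and 0 to 1 as each mouse was left out. The count called lower, 4, was 2 with total UMIs or DESeq2, 0 when thinned and 1 to 4 as each mouse was left out; thinning left 141 genes tested. Slc3a2 reversed in EoE to 0.34 over all cells, 0.27 with at least 100 UMIs and, added later, 0.0476 without mouse 11 and 0.25 with DESeq2 over all cells, and Slc7a11 to −0.0523 without mouse 10 (up to 1.82 without mouse 12). In ESCC against EoE, 0 lower became 1 over all cells, with at least 100 UMIs, with total UMIs, and in 3 settings added later, 0 to 1 as each mouse was left out, and 7 higher became 2 with only the 2 groups and 0 when thinned. In suprabasal cells 0 lower became 1 (Psat1) by own Krt5 and Krtdap and with shared cells counted once, and 0 to 1 as each mouse was left out. For the stage difference, 1 lower became 0 with shared cells counted once, and Phgdh reversed to −0.24 by own stage. Among uncalled age differences, Slc3a2 turned to −0.0138 by DESeq2, and leaving out each mouse gave −0.15 to 0.14 for Psat1, −0.0965 to 0.17 for Atf4, −0.21 to 0.31 for Slc3a2, −0.14 to 0.37 for Phgdh, −0.16 to 0.37 for Shmt2 and −0.40 to 0.0414 for Asns, all across 0; the EoE effect by age reversed over all cells for Psat1 (0.19) and Slc3a2 (0.65). The cause of these changes was not tested. No paired analysis was possible because each mouse is in 1 group, except for the stage difference, which was fitted with the mouse as a block. The 97975 UMIs of the EoE cells limit every EoE value.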
